A study of Mus musculus with 6 samples.

Results

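Secreted Wnt antagonists, TCF factors and Wnt target genes were measured by RNA-seq in mouse embryonic stem (ES) cells with and without Morc3. The 10 members were Sfrp1, Sfrp2, Sfrp5, Frzb, Dkk1, Axin2, Lef1, Tcf7, Tcf7l1 and Tcf7l2, out of 24054 gene rows in the files. They are listed by gene symbol, and the list was chosen from the ko against wild-type values of these same libraries, with Sfrp2 at its head, so the values of the members in that contrast are a description and carry no test. The study examined Morc3, an ATPase of the MORC family, as a factor that silences endogenous retroviruses in these cells. There were 3 libraries of Morc3 knock-out (ko) cells and 3 of wild-type cells, all from feeder-independent ES cells grown on gelatin with serum and LIF. The ko libraries came from cell lines KO27-1, KO27-2 and KO27-3, called clone 1, clone 2 and clone 3 here. The ko lines were made with Cas9 and guide RNAs against Morc3 and grown from individual clones after a short puromycin selection. Effects of cloning and selection cannot be told apart from those of the genotype. The wild-type libraries all came from the line WT26, which was also the parent line of the ko clones, and are named p42, p43 and p56 after their titles. The study calls the samples of each group biological replicates, while the labels give neither the meaning of the letter p nor whether the cultures were grown separately, so the spread among the wild-type libraries is that within 1 line and may be technical in part.

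Wnt proteins are secreted ligands that bind Frizzled receptors and the co-receptors LRP5 and LRP6, which stops the Axin, APC and GSK3 complex from marking beta-catenin for destruction. Beta-catenin then enters the nucleus, binds TCF/LEF factors and turns on target genes such as Axin2, whose product feeds back on the pathway. Secreted frizzled-related proteins (Sfrp1, Sfrp2, Sfrp4, Sfrp5 and Frzb) bind Wnt ligands outside the cell, and Dkk1 blocks the co-receptors. In ES cells the pathway favours self-renewal, and Tcf7l1 is known there as a repressor of pluripotency genes.

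The sequences upstream of 3 members are shown because they stand for the gene with the largest fold difference among the members (Sfrp2), the standard Wnt target (Axin2) and the member whose window holds 2 TCF heptamers (Dkk1). Each window is the 250 bases before a RefSeq transcription start on GRCm38, the assembly that mm10 names, written 5′ to 3′ on the strand of the gene. Capitals mark a TCF heptamer, CTTTG followed by A or T and again by A or T, which gives 4 motifs that cannot start at the same base and were searched on both strands. The windows are chr3:83766071-83766320 on the plus strand for Sfrp2, chr11:108920099-108920348 on the plus strand for Axin2 and chr19:30549497-30549746 on the minus strand for Dkk1. The Sfrp2 and Axin2 windows lie inside the annotated spans of these genes, which begin at 83765750 and 108917828, so each precedes an internal start.
Sfrp2: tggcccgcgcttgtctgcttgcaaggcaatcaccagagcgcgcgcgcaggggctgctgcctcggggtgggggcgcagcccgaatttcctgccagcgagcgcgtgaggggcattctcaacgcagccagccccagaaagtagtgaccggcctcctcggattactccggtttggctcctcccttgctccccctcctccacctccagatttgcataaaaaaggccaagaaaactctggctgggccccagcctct
Axin2: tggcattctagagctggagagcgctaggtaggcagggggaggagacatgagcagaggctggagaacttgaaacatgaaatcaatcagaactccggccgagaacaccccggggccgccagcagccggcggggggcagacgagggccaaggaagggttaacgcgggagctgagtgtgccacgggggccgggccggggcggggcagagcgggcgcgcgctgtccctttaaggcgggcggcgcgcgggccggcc
Dkk1: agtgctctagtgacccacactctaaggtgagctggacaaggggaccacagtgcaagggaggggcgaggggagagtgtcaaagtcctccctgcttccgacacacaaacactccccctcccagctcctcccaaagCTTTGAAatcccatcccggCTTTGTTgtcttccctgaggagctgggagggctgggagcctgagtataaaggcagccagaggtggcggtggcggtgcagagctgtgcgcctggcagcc
The Dkk1 window held a heptamer 117 bases and another 98 bases before the start, both on the strand of the gene, and the Sfrp2 and Axin2 windows held none of the 4. A match says only that the letters are there, and the lack of one says only that they are not in this window. At least 1 heptamer was present in 4874 of 32851 RefSeq windows of this length, or 14.8%. The GC content was 63.6% for Sfrp2, 69.2% for Axin2 and 60.8% for Dkk1, beside a median of 52.4% over all windows. RefSeq windows were matched for 9 of the 10 members, in 14 windows, all but Sfrp1. Besides Dkk1, 1 start of Lef1 and 1 start of Tcf7l2 had a match, 147 bases before the start on the opposite strand and 14 bases before it on the gene's own strand.

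The libraries held 10740618 to 14123131 sense counts over genes, so that 3 counts, taken as the limit that a count of 0 allows, corresponded to 0.212 to 0.279 CPM (counts scaled to a fixed library total). This limit and the intervals on count ratios cover counting error only. Morc3 itself lay at 77.7 to 138 CPM in the ko libraries and at 272 to 302 CPM in the wild-type libraries, a difference of -1.28 ± 0.16 on the log2 scale (SE; edgeR adjusted p = 8.4e-04). All 6 ES cell markers were counted in every library, with sums of 3931 to 4045 CPM in ko and 3714 to 3866 CPM in wild type that did not overlap, and none was called. Of all genes, 12222 passed the filter on low counts and 156 were called at an edgeR adjusted p under 0.01, or 1.28%. 105 were higher in ko (0.859%) and 51 were lower in ko (0.417%). Among the same 12222 genes, 9.67% had all ko libraries above all wild-type libraries and 10.2% had all ko libraries below them.

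6 of the 10 members passed the filter (Sfrp1, Sfrp2, Axin2, Tcf7, Tcf7l1 and Tcf7l2), and each of these had at least 19 counts in every library. Sfrp5, Frzb, Dkk1 and Lef1 had at most 9 counts in any library and did not enter the fit. 1 of the 6, Sfrp2, was past the threshold, to be set beside the 1.28% of all tested genes and the 0.859% called higher, and this count was 0 without clone 1 or without clone 3. 1 member had all ko libraries above wild type (Sfrp2), 1 had all ko libraries below (Sfrp1) and in the other 8 the groups overlapped. Since the list was chosen on this contrast, nothing is read from these shares. In bulk RNA, a change in the number of cells that express a gene and a change in RNA per cell cannot be told apart.

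Sfrp2, a secreted antagonist, stood higher in every ko library than in any wild-type library. It lies on chromosome 3 at 83765750 to 83774314, on the plus strand. The ko clones 1, 2 and 3 had 76, 68 and 80 Sfrp2 counts, and wild-type p42, p43 and p56 had 28, 41 and 34. In CPM these were 7.02, 6.0 and 7.25 in ko and 2.03, 2.87 and 2.62 in wild type. The lowest ko library was above the highest wild-type library, and within wild type p43 stood above p42 and p56. The mean Sfrp2 level was 6.75 ± 0.667 CPM in ko and 2.51 ± 0.433 CPM in wild type (SD, n = 3 each). The fitted log2 fold change was 1.43 ± 0.19 (SE), or 2.69-fold, and the ratio of pooled counts had a 95% interval of 2.12 to 3.43. Over the alternative settings the log2 fold change of Sfrp2 ran from 1.30 to 1.54. The opposite strand of Sfrp2 had 5 counts over all 6 libraries against 327 sense counts.

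**Figure D1:**
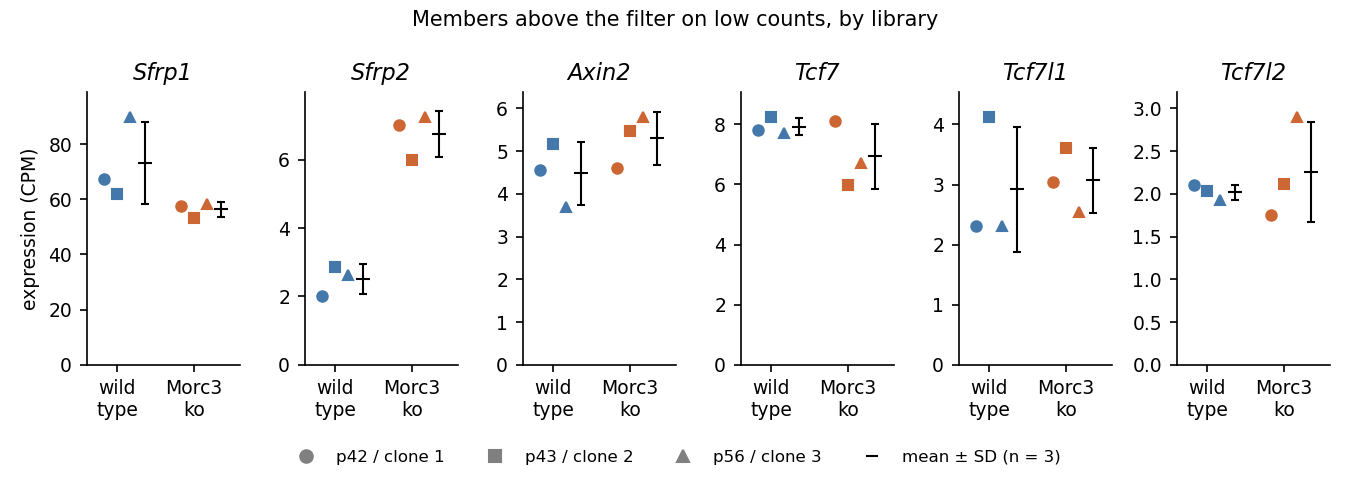
Expression in CPM (vertical axes, each from 0) of the 6 members above the filter in the 3 wild-type libraries (blue) and 3 Morc3 ko libraries (orange), with the mean and SD of each group. Sfrp2 has all ko libraries above wild type, at 6.0 to 7.25 against 2.03 to 2.87 CPM, Sfrp1 has all ko libraries below, at 53.1 to 58.2 against 61.9 to 89.9 CPM, and the other 4 overlap.

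Sfrp1 was the most abundant member and differed in the other direction by a smaller amount. It lies on chromosome 8 at 23411383 to 23449632, on the plus strand. The ko clones 1, 2 and 3 stood at 57.7, 53.1 and 58.2 CPM, and p42, p43 and p56 at 67.2, 61.9 and 89.9 CPM. All ko libraries were below the wild-type libraries, but clone 3 and p43 were close, and p56 stood 1.39-fold above the mean of p42 and p43. The Sfrp1 mean was 56.3 ± 2.82 CPM in ko and 73.0 ± 14.8 CPM in wild type (SD, n = 3 each), with a log2 fold change of -0.37 ± 0.12 (SE). Without p56 the log2 fold change was -0.20.

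Sfrp5 and Frzb, which also bind Wnt ligands, were at or near the limit of detection. Sfrp5 (chromosome 19, 42197971 to 42202252, minus strand) had 2, 6 and 9 counts in clones 1, 2 and 3 and 2, 8 and 6 counts in p42, p43 and p56. The groups overlapped fully, with means of 0.510 ± 0.316 CPM in ko and 0.389 ± 0.217 CPM in wild type (SD, n = 3 each). The ko to wild-type ratio of pooled Sfrp5 counts had a 95% interval of 0.625 to 2.78, which holds both falls and rises. This interval leaves out the spread between libraries. Frzb (chromosome 2, 80411970 to 80447396, minus strand) had 1 count in all, in p43, and 0 in the other 5 libraries.

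Per kb of exon, the secreted family was mostly Sfrp1 in both groups, with a larger part for Sfrp2 in ko. The family sum, with Sfrp4 added for completeness, was 18.2 ± 1.14 CPM per kb in ko and 19.4 ± 3.14 CPM per kb in wild type (SD, n = 3 each), with overlapping libraries at 16.9 to 19.1 and 17.2 to 23.0. Sfrp2 made up 17.6%, 16.5% and 17.6% of that sum in clones 1, 2 and 3, and 5.21%, 7.74% and 5.29% in p42, p43 and p56. Sfrp1 made up 69.8% to 71.9% in ko and 82.3% to 89.3% in wild type, and Sfrp4 10.0% to 10.6% and 4.33% to 9.21%. The shares of Sfrp1, Sfrp2 and Sfrp4 did not overlap between the groups, while the sum did. Shares within a library are tied, as a larger share of a gene lowers those of the rest, so these are not separate results. The coding sequences of Sfrp1 and Sfrp2 were 58.1% identical over the alignment, and no run of 50 bases was shared between any transcripts of Sfrp1, Sfrp2, Sfrp5 and Frzb, so reads of the sequenced length did not match more than 1 of these genes in full.

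**Figure D2:**
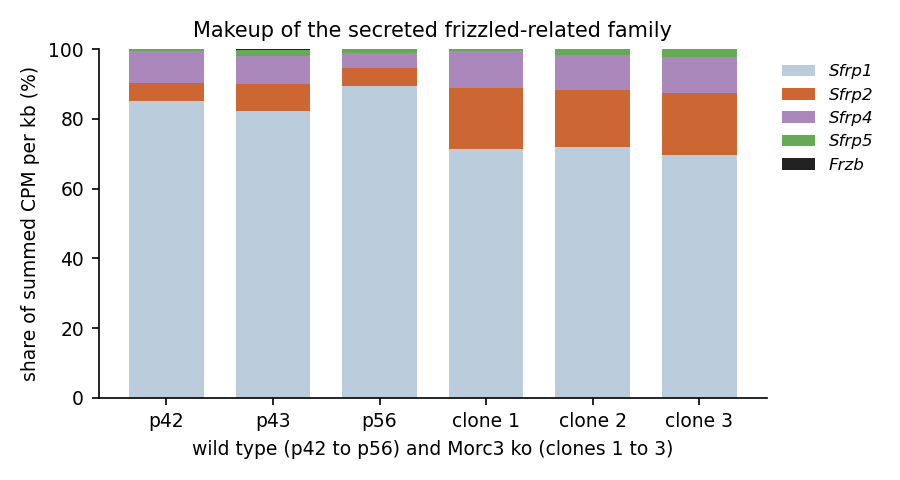
Share of the summed CPM per kb of Sfrp1, Sfrp2, Sfrp4, Sfrp5 and Frzb (vertical axis, percent) in each library, stacked by gene. Sfrp2 takes 16.5% to 17.6% in the 3 ko clones and 5.21% to 7.74% in the 3 wild-type libraries.

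Dkk1, the co-receptor antagonist, was barely expressed. It lies on chromosome 19 at 30545876 to 30549496, on the minus strand, and had 1, 3 and 3 counts in clones 1, 2 and 3 and 1, 4 and 3 in p42, p43 and p56. The groups overlapped fully. The ratio of pooled counts was 1.08 with a 95% interval of 0.334 to 3.42, which holds both large falls and large rises.

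Axin2, the feedback scaffold and standard target of the pathway, was expressed in overlapping ranges in both groups. It lies on chromosome 11 at 108917828 to 108950783, on the plus strand. Clones 1, 2 and 3 had 50, 62 and 64 counts, or 4.62, 5.47 and 5.80 CPM, and p42, p43 and p56 had 63, 74 and 48 counts, or 4.56, 5.18 and 3.70 CPM. The groups overlapped, with p43 above clone 1. The Axin2 means were 5.29 ± 0.612 CPM in ko and 4.48 ± 0.740 CPM in wild type (SD, n = 3 each), with a log2 fold change of 0.24 ± 0.18 (SE). This difference ran from 0.12 to 0.36 over 13 alternative settings.

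Among the TCF/LEF factors, which carry the signal to DNA, no ko group was set apart from wild type. Tcf7 (chromosome 11, 52246527 to 52283383, minus strand) stood at 8.12, 6.0 and 6.71 CPM in clones 1, 2 and 3 and at 7.81, 8.25 and 7.71 CPM in p42, p43 and p56. Clone 1 was inside the wild-type range and the other 2 clones were below it, giving a log2 fold change of -0.19 ± 0.15 (SE). Tcf7l1 (chromosome 6, 72626371 to 72789045, minus strand) stood at 3.05, 3.62 and 2.54 CPM in ko and at 2.32, 4.13 and 2.31 CPM in wild type. The ko clones all lay inside the wild-type range, which p43 widened, and the log2 fold change of 0.07 ± 0.27 (SE) changed sign in 4 of 13 alternative settings.

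Tcf7l2 (chromosome 19, 55741797 to 55933659, plus strand) stood at 1.75, 2.12 and 2.90 CPM in clones 1, 2 and 3 and at 2.10, 2.03 and 1.93 CPM in p42, p43 and p56. The ko clones spread to both sides of a tight wild-type group, with a log2 fold change of 0.16 ± 0.25 (SE) that changed sign in 1 of 13 settings. Lef1 (chromosome 3, 131110297 to 131224357, plus strand) had 0, 1 and 2 counts in ko and 5, 3 and 1 in wild type. Its ratio of pooled counts was 0.412 with a 95% interval of 0.0718 to 1.65. Per kb of exon, Tcf7 made up 71.3% ± 5.0 of the summed TCF/LEF level in ko and 75.4% ± 4.15 in wild type, and Tcf7l1 made up 21.3% ± 4.65 and 18.2% ± 4.69 (SD, n = 3 each). These shares depend on the gene model. With the longest transcript as the length, the ko mean of Tcf7l2 was 0.608 CPM per kb instead of 0.257. Tcf7, Tcf7l1 and Tcf7l2 had 20, 12 and 11 opposite-strand counts over the 6 libraries, or 3.47%, 5.11% and 6.51% of both strands, against 0 for Axin2.

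The levels per kb of exon give the order of the members within each group. In wild type it ran from Sfrp1 (16.7 ± 3.40 CPM per kb) to Tcf7 (3.02 ± 0.109), Sfrp2 (1.16 ± 0.201), Axin2 (0.813 ± 0.134), Tcf7l1 (0.744 ± 0.267), Tcf7l2 (0.230 ± 0.0097) and Sfrp5 (0.205 ± 0.114), followed by Dkk1 (0.0802 ± 0.0447), Lef1 (0.0246 ± 0.0162) and Frzb (0.0072 ± 0.0125) (SD, n = 3 each). The libraries of Axin2 and Tcf7l1 overlapped, as did each pair of neighbours from Tcf7l2 downwards, while the first 3 genes were each clear of the next. In ko, Sfrp1 (12.9 ± 0.644 CPM per kb) was followed by Sfrp2 (3.14 ± 0.310) and Tcf7 (2.65 ± 0.412), whose libraries overlapped, then by Axin2 (0.962 ± 0.111) and Tcf7l1 (0.782 ± 0.137), which also overlapped. Sfrp5 (0.268 ± 0.166), Tcf7l2 (0.257 ± 0.0668), Dkk1 (0.0864 ± 0.0419), Lef1 (0.0102 ± 0.0103) and Frzb (0) closed the ko order. Sfrp2 thus lay below Tcf7 in every wild-type library and above it within each ko clone, though the ko ranges of the 2 genes overlapped. In clones 1, 2 and 3 Sfrp2 stood at 3.258, 2.785 and 3.369 CPM per kb, against 3.095, 2.285 and 2.556 for Tcf7. The counts were 76, 68 and 80 for Sfrp2 and 88, 68 and 74 for Tcf7, so in clones 1 and 2 this order rests on exon length. Whether these gaps exceed counting error was not tested. With the longest transcript as the length, Tcf7l2 had a mean of 0.608 CPM per kb in ko and stood above Sfrp5, so the order of these 2 depends on the gene model. The wild-type means of Sfrp2 and Axin2 were then 1.25 and 1.05 CPM per kb, so the gap between these genes also depends on it.

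**Figure D3:**
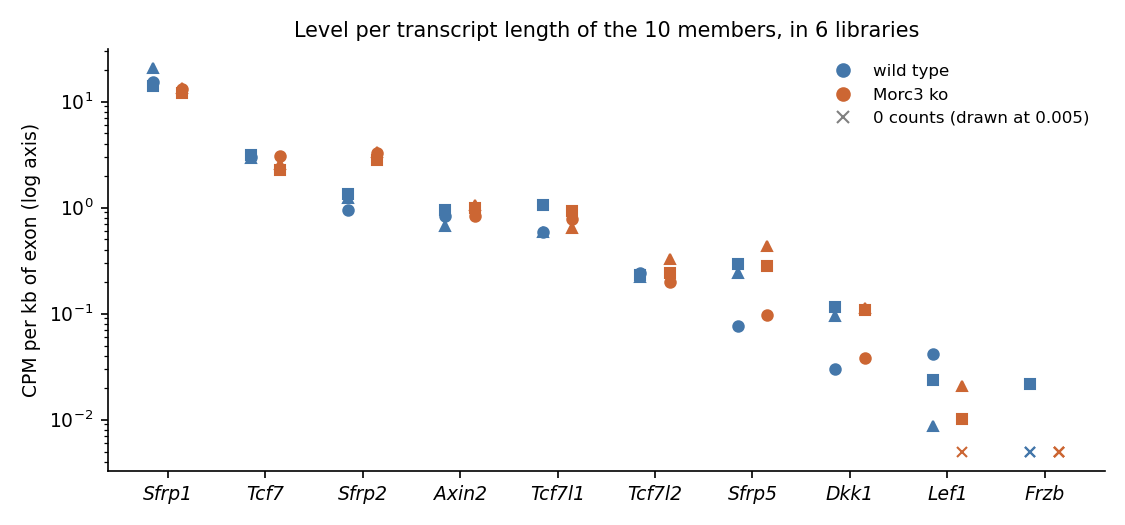
CPM per kb of exon (vertical log axis) of the 10 members in the 3 wild-type (blue) and 3 Morc3 ko (orange) libraries, ordered by the wild-type mean, with crosses for libraries with 0 counts. Sfrp1 lies highest in all libraries. Sfrp2, at 2.79 to 3.37 CPM per kb in ko, lies above Tcf7 within each ko clone, with overlapping ranges and gaps not tested against counting error.

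The rest of the pathway was examined with 100 other genes in 9 lists by role. Of these, 63 were tested and 1 was called by edgeR, Apcdd1, which was higher in ko. None was called lower. DESeq2 and limma-voom called the same gene and no other, and 14 of the 63 had an unadjusted p under 0.05, beside 1746 of all 12222 tested genes. 30 of the 63 had a positive log2 fold change and 33 a negative one, with a median of -0.00234, beside 6108, 6114 and -0.000103 for all tested genes. 5 of the 100 had no count in any library, and 32 had counts but did not pass the filter.

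Apcdd1, a membrane protein that inhibits Wnt signalling at the cell surface, rose in all ko clones. It stood at 9.69, 10.2 and 9.61 CPM in clones 1, 2 and 3 and at 3.11, 3.78 and 3.63 CPM in p42, p43 and p56. The groups were far apart and tight, with means of 9.84 ± 0.337 and 3.51 ± 0.349 CPM (SD, n = 3 each). The log2 fold change of Apcdd1 was 1.49 ± 0.15 (SE; edgeR adjusted p = 1.5e-04), and it was called in every alternative setting. Dkkl1, related to the Dickkopf proteins, lay at the other end of the 7 tested antagonists, at 0.363 to 0.617 CPM in ko and 0.941 to 1.54 CPM in wild type, a log2 ko to wild-type change of -1.15 ± 0.40 (SE; edgeR adjusted p = 0.195). The median of these 7 was 0.00. Sfrp4, added here because it belongs to the family of Sfrp2, stood at 8.22, 7.05 and 8.25 CPM in ko and at 6.95, 5.87 and 4.17 CPM in wild type. All ko libraries of Sfrp4 were above wild type by a narrow margin, with a log2 ko to wild-type change of 0.46 ± 0.19 (SE; edgeR adjusted p = 0.272).

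The ligands and the genes of ligand secretion did not pass the test in either direction. Only 4 of 19 Wnt ligand genes were tested, with log2 fold changes from -0.83 (Wnt7b, edgeR adjusted p = 0.329) to -0.08 (Wnt5b) and a median of -0.39. Wnt7b stood at 2.45 to 2.95 CPM in ko and at 3.62, 2.66 and 8.02 CPM in p42, p43 and p56, so p56 set its wild-type mean. Of the secretion genes, Porcn, which attaches the lipid that Wnt proteins need, stood at 6.07 to 8.40 CPM in ko and 9.30 to 11.7 CPM in wild type. The Porcn groups did not overlap, with a log2 ko to wild-type change of -0.52 ± 0.16 (SE; edgeR adjusted p = 0.132). Wls, the carrier of Wnt proteins to the cell surface, had a log2 fold change of -0.35.

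Receptors, transduction genes and nuclear cofactors centred near 0. The 13 tested receptors and co-receptors had a median log2 fold change of -0.02 and ran from Fzd2 (-0.67, edgeR adjusted p = 0.177) to Ror2 (0.33, edgeR adjusted p = 0.126). The 3 tested genes of the R-spondin axis, which acts on the level of Wnt receptors, ran from Lgr6 (-0.44) to Lgr4 (0.07). All 15 cytoplasmic genes were tested, with a median of 0.03 and a range from Apc2 (-0.38) to Amer1 (0.16). The 7 tested cofactors of TCF and beta-catenin had a median of -0.02, from Bcl9 (-0.17) to Tle1 (0.21). None of these passed the edgeR threshold.

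The genes downstream were likewise not called. The 6 tested of 11 other Wnt targets had a median log2 fold change of 0.24, from Ccnd1, a cell cycle cyclin (-0.02), to Tnfrsf19, a receptor of the TNF family (0.48, edgeR adjusted p = 0.236). All 6 genes listed as repressed by Tcf7l1 were tested, with a median of 0.06, from Tfcp2l1 (-0.12) to Klf2. Klf2, a pluripotency factor, stood at 131 to 139 CPM in ko and 111 to 118 CPM in wild type, with a log2 ko to wild-type change of 0.24 ± 0.06 (SE; edgeR adjusted p = 0.0716).

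**Figure D4:**
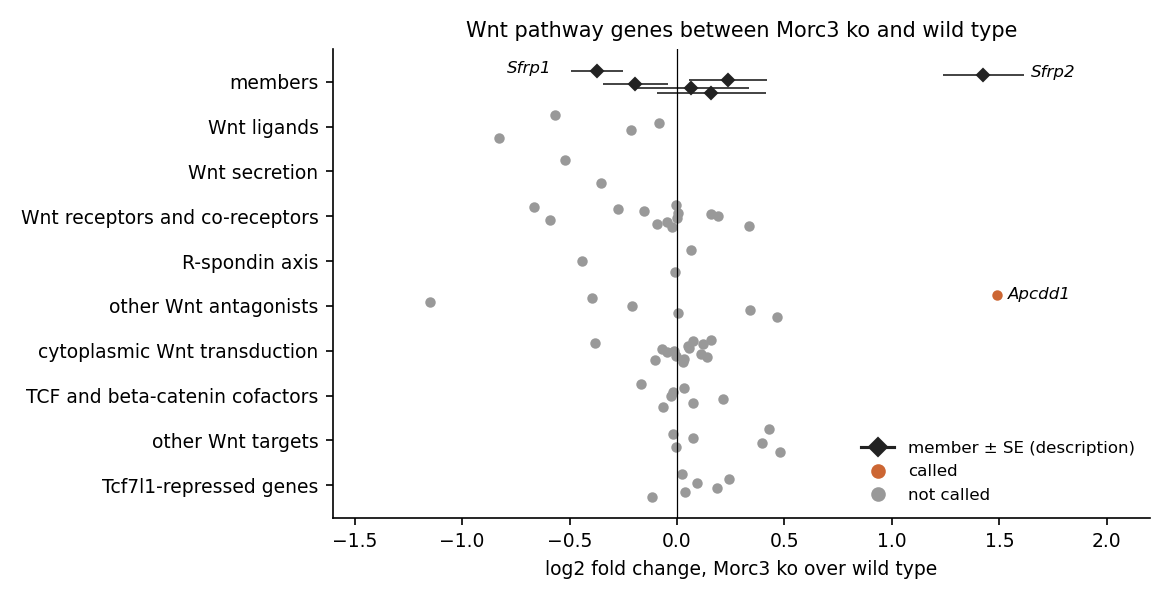
Log2 fold change of Morc3 ko over wild type (horizontal axis) for the 6 members above the filter (diamonds with SE, given as a description) and for the 63 tested genes of 9 other Wnt lists (circles). Apcdd1 at 1.49 is the called gene, close to Sfrp2 at 1.43, while most others lie near 0.

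Genes around the members were compared because their reads are separate from those of the members. They were still measured in the same libraries and lie beside members chosen on this contrast. 64 genes within 500 kb of a member were tested (distance between lower coordinates) and 2 were called by edgeR, beside 1.28% of all tested genes, both higher in ko and both beside Sfrp2. None was called lower by edgeR in the main setting. DESeq2, edgeR without a filter and edgeR without p56 each called 3 higher and 1 lower. Tlr2, a receptor of innate immunity that recognises bacterial lipoproteins, lies on the minus strand at 83836272 to 83841824. Its lower coordinate, the end of the gene on that strand, is 70.5 kb from that of Sfrp2. It stood at 15.8, 16.0 and 16.9 CPM in clones 1, 2 and 3 and at 3.26, 3.15 and 3.39 CPM in p42, p43 and p56, groups far apart and tight. The log2 fold change of Tlr2 was 2.31 ± 0.13 (SE; edgeR adjusted p = 1.4e-06), and it was called in every alternative setting.

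Trim2, a ubiquitin ligase, lies 395 kb from Sfrp2. It stood at 100.2, 99.0 and 107 CPM in clones 1, 2 and 3 and at 75.6, 77.4 and 66.7 CPM in p42, p43 and p56, with no overlap. Its log2 fold change was 0.48 ± 0.07 (SE; edgeR adjusted p = 0.0041), but the call was lost on leaving out clone 1, clone 2, clone 3 or p42, with adjusted p up to 0.0444. D930015E06Rik and Mnd1 lie between Tlr2 and Trim2 and were not called, with log2 fold changes of 0.07 (edgeR adjusted p = 0.859) and 0.24 (edgeR adjusted p = 0.160). The differences were thus of unequal size along the interval and were not ordered by distance from Sfrp2. The other 2 annotated genes within 500 kb of Sfrp2, 1700028M03Rik and Gm6525, had 0 and 4 counts in all.

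**Figure D5:**
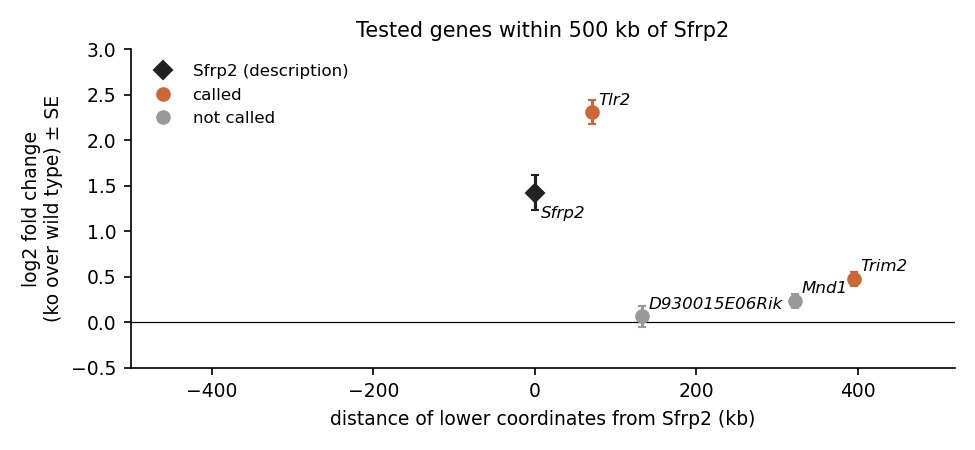
Log2 fold change of Morc3 ko over wild type with SE (vertical axis) of Sfrp2 and the 4 tested genes within 500 kb, against distance from Sfrp2 in kb. Tlr2 at 70.5 kb is at 2.31, above Sfrp2 at 1.43, and Trim2 at 395 kb is at 0.48.

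Close to the other members no gene was called. Within 100 kb of a member, 12 genes were tested and Tlr2 was the 1 that edgeR called. The other 11 were Avpi1, Marveld1, Zfyve27 and Crtac1 near Sfrp5, Dnajc10 and Nckap1 near Frzb, Skp1a near Tcf7, and Capg, Elmod3, Retsat and Tgoln1 near Tcf7l1, with log2 fold changes from -0.44 (Marveld1) to 0.03 (Avpi1). On either side of Sfrp1 lay Nkx6-3 and Zmat4, named after their values were seen. Nkx6-3, a homeobox gene, had a log2 ko to wild-type change of -0.82 ± 0.17 (SE; edgeR adjusted p = 0.0215), and Zmat4 had 0.62 ± 0.12 (SE; edgeR adjusted p = 0.0132), both short of the threshold and both called by DESeq2.

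The genes with the profile most like that of Sfrp2 were found by the root mean square difference of mean-centred log2 CPM over the 6 libraries. The nearest 5 of 12221 genes were B4galt6, which makes lactosylceramide (0.12), Apcdd1 (0.130), Gm5595 (0.166), Frmd4b (0.166) and Cntnap2, a neurexin-family adhesion protein (0.176), beside a median of 0.722 over all tested genes. The ranking used the profile of Sfrp2 itself over the same 6 libraries, so genes with a like ko to wild-type difference come first by construction. The log2 fold changes of these 5, from 1.13 (Cntnap2) to 1.49 (Apcdd1), are therefore not a separate result. B4galt6 and Apcdd1 both lie on chromosome 18, and none of the 5 lies on chromosome 3. Tlr2, the nearest tested neighbour of Sfrp2 on the chromosome, had a difference of 0.467 and ranked 168. The measure grows with any difference in fold size, and the log2 fold change was 2.31 for Tlr2 beside 1.43 for Sfrp2.

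Most markers of other cell types were low in all libraries, and Thy1 and Pdgfrb of the fibroblast and feeder list were at lower levels in ko. The summed level of 6 fibroblast and feeder markers was 7.06 to 8.31 CPM in ko and 11.8 to 12.7 CPM in wild type, and the difference lay in Thy1 and Pdgfrb. Pdgfrb stood at 1.85 to 2.68 CPM in ko and 2.7 to 3.18 CPM in wild type. The collagen genes overlapped between the groups, with 16 Col1a1 counts in ko and 13 in wild type, 5 and 7 for Col1a2, and 1 and 1 for Col3a1, and Twist2 was at 0 in every library. 2 of the 6 were tested and 1 was called, Thy1, with a log2 ko to wild-type change of -0.86 ± 0.14 (SE; edgeR adjusted p = 0.0064). The call of Thy1 was lost without any 1 of the ko clones, p42 or p43, with adjusted p up to 0.0584. The 6 endoderm markers summed to 1.18 to 1.41 CPM in ko and 1.77 to 2.17 CPM in wild type, with Foxa2 at 2 counts in all, and none was called. The summed levels overlapped for 6 mesoderm and primitive streak markers (1.94 to 2.99 CPM in ko, 2.80 to 3.04 in wild type), 4 neural markers (100.8 to 107.5 and 102.7 to 110.7, mostly Tubb3) and 4 trophoblast markers (47.0 to 58.4 and 49.2 to 67.5, mostly Tfap2c). The part of these markers in the Sfrp1 and Sfrp2 values was not tested.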

How the data were processed

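RNA was measured in 6 libraries, 3 of Morc3 ko clones and 3 of wild-type ES cells. The authors depleted ribosomal RNA, made strand-specific libraries and aligned reads to mm10 with STAR; which annotation they counted on is not given in the sources used here. The deposited files hold raw counts per gene, with no normalization, in 3 columns by strand. The strand column with the larger total was taken as sense. The first 4 lines of each file, reads not assigned to a gene, were kept out of library sizes and tests (36.2% to 37.7% of reads).

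Genes were tested with edgeR 4.0.16 in R 4.3.3 (quasi-likelihood test, TMM factors, low counts removed by filterByExpr at its minima of 10 per library and 15 in total, prior count 0.125, no covariate). P-values were two-sided, adjusted by Benjamini-Hochberg over 12222 genes, and called under 0.01. The test was checked on simulated counts drawn with a common dispersion for all genes, so the check does not cover genes that vary more between replicates. CPM were computed from the sense gene counts after TMM scaling, with no pseudocount. Intervals on count ratios are exact 95% intervals for pooled counts. Gene positions came from RefSeq and exon lengths from GENCODE, both for GRCm38. By symbol, 22542 of 24054 rows were matched, 1352 by an older symbol and 160 not.

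The genes named were all members, called genes and the lowest and highest of each Wnt list, tested genes within 100 kb and called genes within 500 kb of a member, and the 5 profiles nearest to Sfrp2, with Morc3 as a check of the labels. Members and lists were chosen with earlier results of these data known. Alternatives were DESeq2 1.42.0, limma-voom (limma 3.58.1), RLE factors, library size only, no filter, unstranded counts, a prior count of 2, a threshold of 0.05 and leaving out each library.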

Additional observations from a re-analysis of the deposited data

How the results depend on the processing

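Genes called over all 12222 tested numbered 156. They numbered 254 with DESeq2, 286 without a filter on low counts, 331 at a threshold of 0.05, and 72 to 385 on leaving out 1 library, with the lowest counts without a ko clone (96 without clone 1, 73 without clone 2, 72 without clone 3) and the highest without p56. Called genes within 500 kb of a member numbered 2. They numbered 4 with DESeq2 and without a filter (Nkx6-3 and Zmat4 added), 5 at a threshold of 0.05 (Tmsb10 also added) and 1 to 4 on leaving out 1 library, with 1 without clone 2 or clone 3 and 4 without p56; Tlr2 was called in each of these. Without clone 1 the called neighbours were Tlr2 and Zmat4, and without p42 they were Tlr2 and Nkx6-3. Apcdd1 was the called gene among the other Wnt genes in every setting. The cause of these shifts was not tested. No paired analysis was possible because the ko and wild-type labels share no replicate numbers. Depth limits Sfrp5, Frzb, Dkk1 and Lef1, whose few counts leave wide intervals.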
